A study of Mus musculus with 24 samples.

Results

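The comparison set single mouse embryos at 12 h after fertilization by sperm injection against the unfertilized eggs from which the course began. Cells were chosen by their titles: 4 embryos titled as 12 h after intracytoplasmic sperm injection (ICSI, in which 1 sperm is injected into the egg) and 3 oocytes in metaphase II (MII) titled as 0 h, together 7 of the 24 single-cell arrays. All cells carried the strain label B6D2F1, a hybrid mouse strain. Per the labels' protocols, oocytes were kept in kalium simplex optimized medium until used and sperm came from B6D2F1 males of 8 to 12 weeks. The other arrays were embryos at 2, 4, 6, 8 and 10 h, of which the 3 embryos at 2 h serve here as a second comparison. The 4 embryos at 12 h were still labelled as single-cell embryos, and the comparison covers the sampled course from 0 h to 12 h. The series' title places the work in the study of genome activity as the embryo becomes totipotent.

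An MII oocyte is transcriptionally silent and lives on messenger RNA stored during its growth. After fertilization the egg leaves meiosis, many stored messages lose their poly(A) tails and are degraded, others are polyadenylated and translated, and the first, minor wave of embryonic transcription begins before the first cleavage. In the mouse, the genes of this wave include some that peak at the 2-cell stage, when the major wave follows.

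Values below are levels in log2 intensity, computed back from the scores the authors deposited, with a background near 6.79 and a highest value of 15.86. All arrays share 1 distribution of values, so a level is relative to the other genes of the same cell, and a change in the total mRNA of a cell cannot be seen. The mRNA was captured through its poly(A) tail, and amount and tail length cannot be told apart. The submitters' notes state no background step, and whether background was subtracted is not known. Changes of genes near background may be understated. Marker lists were read for cell type, and they cannot tell an oocyte from an injected embryo. All 14 oocyte markers were more than 2 log2 units above background in both groups. Their array medians were 13.97 to 14.26 at 0 h and 13.12 to 13.82 at 12 h, although 4 of them (Gdf9, Zar1, H1f8 and Mos) fell. The 25 sperm markers had array medians of 7.20 to 7.40 at 0 h and 7.30 to 7.75 at 12 h, with 4 and 6 of them more than 2 units above background and 0 called. For the 21 cumulus markers the medians were 7.14 to 7.29 and 7.26 to 7.52, with 2 and 3 above that level, and for the 14 blood markers 7.28 to 8.05 and 7.43 to 8.04, with 3 at each time and 0 called in either list. The oocytes resembled each other more (pairwise r across genes of 0.93 to 0.94) than the 12 h embryos did (0.81 to 0.86), and oocyte and embryo correlated at 0.80 to 0.87. The median SD of a gene was 0.28 among the oocytes, 0.53 among the 2 h embryos and 0.50 among the 12 h embryos. The labels do not say which cells came from 1 female, and the p-values cover only the spread from cell to cell; the number of arrays limits the precision.

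By 12 h, 205 of 19532 genes had fallen (1.05% of the genes tested) and 80 had risen (0.410%), together 1.46%, at a limma adjusted p under 0.05. The falls were the larger: their median log2 change was -2.98, the smallest was 0.68 and the largest 5.95 in size, and 158 of the 205 exceeded 2 log2 units. The rises had a median of 2.18, ran from 0.74 to 5.11, and 49 of the 80 exceeded 2. Over all genes the median change was 0.08. In a short list 1 called gene alone gives a share above these. Short lists with 0 or 1 called gene, given below, are therefore no result about the list. A gene without a call is not shown to be unchanged. The fallen genes had a median level of 12.39 in the oocytes and 8.49 in the 12 h embryos, where 78 of them lay within 1 log2 unit of background. The risen genes had median levels of 8.81 and 11.44, and 26 of them lay within 1 unit of background in the oocytes. A dim gene cannot fall far, so the brightness of the fallen genes is in part set by the call. A second probe above background was present for 81 fallen genes, where all such probes went down in 73 and some went up in 8, and for 23 risen genes, with 17 and 6. Of the 9860 genes with an oocyte level under 8, 4 fell and 32 rose, while of the 519 genes at 14 or above 47 fell and 1 rose. Between these levels, 29 of 4350 genes at 8 to 10 fell, 52 of 2840 at 10 to 12 and 73 of 1963 at 12 to 14. The list shares below were not matched for oocyte level, so 1.05% is a low comparator for lists of genes bright in the oocyte. In 203 of the fallen and 79 of the risen genes, no embryo overlapped an oocyte, against 19.3% of all genes. The call was made on the same cells, so this separation follows largely from the call and adds no support to it. Without any 1 of the 3 oocytes the counts dropped to between 89 and 106 fallen and 15 and 25 risen, and without embryo c they were 146 and 47. The share of rises among the calls was 28.1%, against 14.2% when only these 7 cells entered the fit, 43.4% without the mean-variance trend and 45.5% with array weights.

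**Figure D1:**
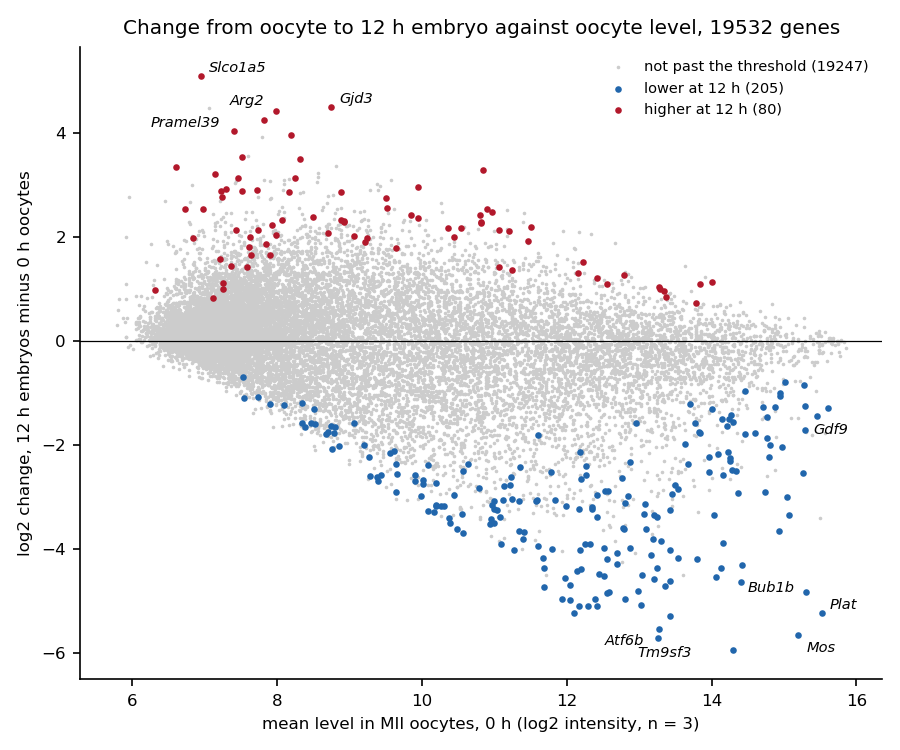
Log2 change from the 3 oocytes to the 4 embryos at 12 h (vertical axis) against the mean oocyte level (horizontal axis, log2 intensity), 1 point per gene; blue genes were lower and red genes higher at an adjusted p under 0.05. The 205 fallen genes reach down to -5.95 on the right, the 80 risen genes reach 5.11 and lie mostly on the left, and the edge running down from the left is the limit set by background.

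Promoters of 4 genes that were near background in the oocytes and higher in the embryos are shown first, because they belong to the 2-cell and Pramel groups described further on. Each sequence runs 5′ to 3′ from 250 bases before to 50 bases after the gene's start, from RefSeq's GRCm38.p6 assembly; capitals mark TATAA, the core of a TATA box, and TAATCC, a sequence that homeodomain proteins of the OTX type are known to bind, both as they stand on the gene's own strand. Zfp352, which encodes a zinc finger protein of the early embryo, lies at chr4:90218570-90218869 on the plus strand. Usp17lc, of a family of deubiquitinating enzymes, lies at chr7:103416446-103416745 on the plus strand. Pramel37 and Pramel39, members of a leucine-rich repeat family of germ line and early embryo, lie at chr5:94070496-94070795 and chr5:94306747-94307046, both on the minus strand.
Zfp352: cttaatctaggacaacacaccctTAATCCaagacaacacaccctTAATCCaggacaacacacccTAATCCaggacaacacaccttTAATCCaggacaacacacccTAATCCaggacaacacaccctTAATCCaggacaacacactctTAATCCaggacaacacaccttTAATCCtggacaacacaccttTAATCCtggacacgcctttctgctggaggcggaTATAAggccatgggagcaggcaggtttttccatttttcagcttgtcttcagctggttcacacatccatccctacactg
Usp17lc: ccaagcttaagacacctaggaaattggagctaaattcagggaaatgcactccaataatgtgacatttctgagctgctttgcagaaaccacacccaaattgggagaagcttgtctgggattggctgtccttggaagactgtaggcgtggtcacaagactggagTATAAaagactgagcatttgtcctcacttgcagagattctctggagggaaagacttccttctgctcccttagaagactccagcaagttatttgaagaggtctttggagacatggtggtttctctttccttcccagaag
Pramel37: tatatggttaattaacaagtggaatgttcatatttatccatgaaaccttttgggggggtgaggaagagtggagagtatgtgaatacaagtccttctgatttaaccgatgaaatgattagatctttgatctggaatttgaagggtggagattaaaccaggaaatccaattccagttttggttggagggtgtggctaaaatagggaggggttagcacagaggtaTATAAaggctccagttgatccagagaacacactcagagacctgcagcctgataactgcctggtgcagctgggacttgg
Pramel39: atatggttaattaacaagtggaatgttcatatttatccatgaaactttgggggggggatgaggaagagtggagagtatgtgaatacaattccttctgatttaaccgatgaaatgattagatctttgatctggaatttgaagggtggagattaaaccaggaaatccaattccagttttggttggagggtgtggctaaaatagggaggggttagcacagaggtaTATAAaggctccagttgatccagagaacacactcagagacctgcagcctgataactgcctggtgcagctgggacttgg
The Zfp352 promoter holds 9 copies of TAATCC in a repeat and TATAA 28 bases before the start. It was the only one of 26994 promoters (1 per gene) to hold as many TAATCC on both strands together, a sequence found at least once in 7.06% of all 32817 promoters in the table. The promoters of Pramel37 and Pramel39 are near copies, with 295 bases identical, 4 mismatches and 2 gap bases, and both hold TATAA 28 bases before the start. Whether a probe of 1 gene also reads the other was not tested. In Usp17lc, TATAA begins 88 bases before the annotated start.

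Over the 60 risen genes with a promoter in the table, 8 (13.3%) held TATAA on the gene's strand with its first base 40 to 20 bases before the start. The same window held it in 3.51% of all promoters, in 4.2% of those of 15570 tested genes, and in 1 (0.575%) of the promoters of 174 fallen genes. The 8 genes were Gadd45g, Iyd, Krtap9-3, Pramel37, Pramel39, Slco1a1, Snhg5 and Zfp352, which are named because the count is small. Pramel37 and Pramel39, whose promoters are near copies, are counted separately. The share was 2.47% in the 2067 tested genes at 12 or above in the oocyte, and no set of genes dim in the oocyte was counted. The fallen genes had promoters with a median of 64.3% G+C and 26 CG dinucleotides, and GGGCGG, the GC box, on either strand in 71.8%. Promoters of the 2067 tested genes at 12 or above in the oocyte were close to this, with 62% G+C, 23 CG dinucleotides and a GC box in 68%, while over all tested genes the values were 57.7%, 15 and 50.4%. The risen genes had 55.3% G+C, 10 CG dinucleotides and a GC box in 36.7%. These are counts of letters in fixed windows, given as a description.

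The message for the kinase of the meiotic arrest was among the largest losses. Mos, which keeps the mitogen-activated protein kinase pathway on and so holds the egg in metaphase II, was at 15.11, 15.38 and 15.12 in the 3 oocytes and at 10.10, 7.32, 9.38 and 11.36 in embryos a to d. Every embryo was lower than every oocyte, and embryo b was close to background. This was a log2 change of -5.66 (SE 0.77, limma adjusted p = 0.000686). Of the 26 measured genes of meiotic arrest and exit (3.85% lower), Mos was the only one called. Fbxo43, which encodes Emi2, the inhibitor of the anaphase-promoting complex in the arrested egg, was at 14.10 ± 0.11 (SD, n = 3) and 13.45 ± 0.48 (SD, n = 4), and Cks2, a partner of the cyclin-dependent kinases, at 14.98 ± 0.04 and 14.86 ± 0.11. A second Cks2 probe disagreed, with means of 15.11 and 12.57. Cdk1, the mitotic kinase, was at 9.20, 10.04 and 8.90 in the oocytes and 11.14, 12.71, 12.99 and 12.78 in the embryos. Its groups did not overlap, its adjusted p was 0.0548, and it passed in 6 of the 14 alternative settings.

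Among genes of the spindle checkpoint and of holding sister chromatids together, a few fell alongside and most were not called. Bub1b, the checkpoint kinase BubR1, was at 15.38, 15.44 and 15.09 in the oocytes and at 12.14, 9.06, 10.11 and 10.61 in the embryos, a change of -4.82 (SE 0.68, adjusted p = 0.000761). Dsn1, a kinetochore subunit, fell by 1.75 on the log2 scale (adjusted p = 0.0103). These were 2 of 41 measured checkpoint and kinetochore genes (4.88%), whose median change was -0.08; Mad2l1, another checkpoint gene, was at 14.17 ± 0.14 and 14.75 ± 0.46. Smc3, a core subunit of the cohesin ring, was at 13.19, 13.60 and 13.46 in the oocytes and at 8.44, 7.28, 7.82 and 8.99 in the embryos. Its change was -5.28 (SE 0.73, adjusted p = 0.000739), and a second probe above background changed by -3.11. It was the 1 called gene of 27 cohesin and condensin genes, which had a median of -0.65, while Rad21 was at 12.96 ± 0.20 and 12.04 ± 1.05. Cdc26, a small subunit of the anaphase-promoting complex, fell from 15.26 ± 0.09 to 12.73 ± 0.79 as 1 of 19 members. Hus1, of the clamp that signals DNA damage, fell by 4.85 (adjusted p = 0.00223), and both of its other probes above background were lower, by -3.23 and -3.43. It was the 1 called gene among 69 of DNA replication and its checkpoints. Of 29 genes of the chromosomal passenger complex and central spindle 0 were called, with Aurkc at 15.70 ± 0.09 and 15.62 ± 0.11 and Kif23 at 15.29 ± 0.08 and 14.06 ± 0.18 (adjusted p = 0.0746).

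**Figure D2:**
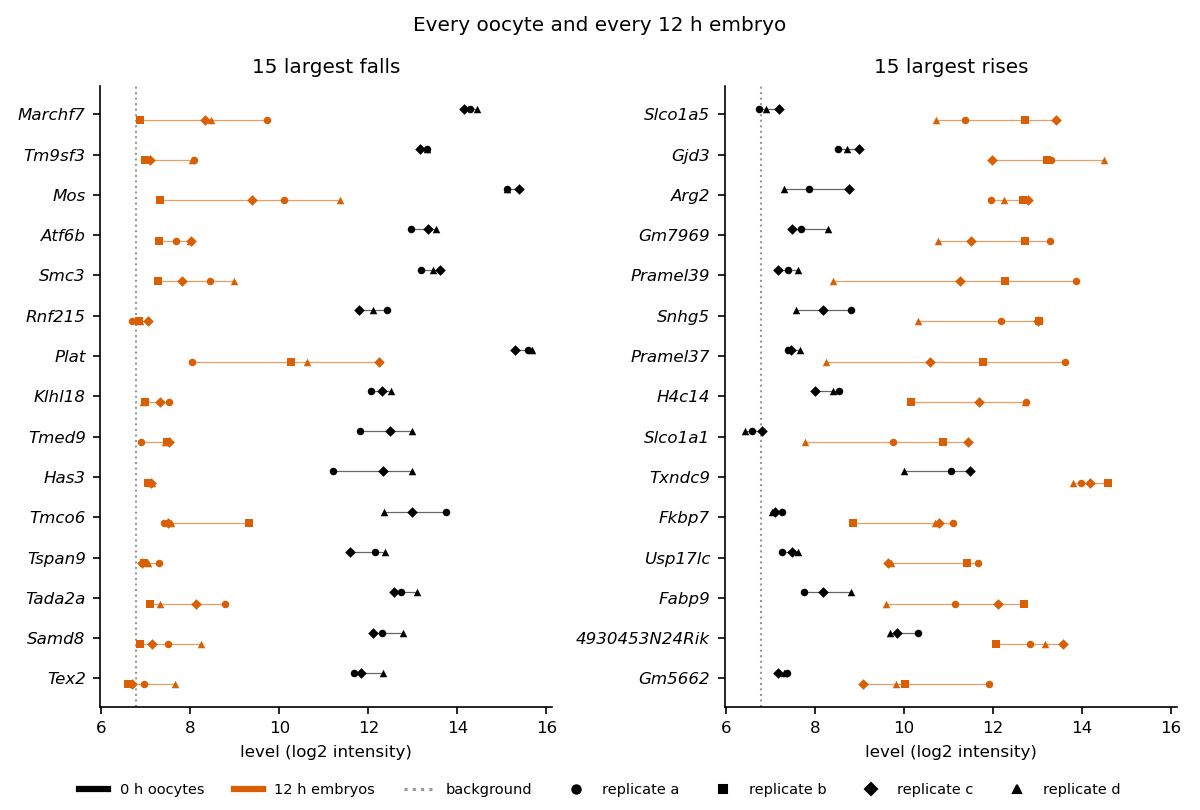
Level in each of the 3 oocytes (black) and 4 embryos at 12 h (orange), with log2 intensity on the horizontal axis. The genes are the 15 with the largest falls and the 15 with the largest rises whose groups did not overlap. Marker shapes are replicate letters, which are not known to pair cells. Fallen genes such as Rnf215 and Has3 reach the background line near 6.79 in all 4 embryos, whereas the embryos spread widely for Mos, Plat, Pramel37 and Pramel39.

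Among the proteins the egg secretes, 2 of 9 measured genes fell (22.2%) and 0 rose. Plat, tissue-type plasminogen activator, a protease stored as dormant mRNA in growing oocytes, was at 15.59, 15.29 and 15.67 in the oocytes. In the embryos it was at 8.03, 10.26, 12.24 and 10.62, spread over more than 4 units. The change was -5.23 (SE 0.77, adjusted p = 0.0012), and a second probe changed by -2.63. Gdf9, the growth factor through which the oocyte controls its granulosa cells, fell by a smaller and more uniform step: 15.27, 15.36 and 15.23 in the oocytes against 13.96, 13.32, 13.85 and 13.17 in the embryos (change -1.71, SE 0.20, adjusted p = 0.000134). Bmp15, its partner, was not called, with 14.20, 13.96 and 14.23 against 14.65, 14.32, 14.09 and 14.38. The 95% interval of the Bmp15 change ran from -0.31 to 0.78.

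Of 27 measured maternal regulators (7.41% lower), Zar1 and H1f8 fell. Zar1, an RNA-binding protein that stabilises maternal messages, was at 14.99, 15.06 and 14.77 in the oocytes and 14.49, 13.15, 13.79 and 14.11 in the embryos (adjusted p = 0.0328), a call lost in 8 settings, among them those without any 1 of the oocytes. H1f8, the oocyte's linker histone, was at 14.26, 14.22 and 13.95 against 13.67, 12.27, 12.62 and 12.02 (adjusted p = 0.0175). In both genes embryo a was the highest, and no embryo reached an oocyte. Of the 25 genes of the subcortical maternal complex and the Nlrp family, the protein lattice beneath the egg's membrane, 0 were called, and their median change was 0.14. Nlrp5 (Mater) was at 12.49, 12.95 and 13.21 against 13.25, 13.10, 12.59 and 13.35. None of the 13 zona and sperm-binding genes was called. Zp3, a zona protein, was at 10.33, 12.67 and 12.91 against 9.69, 10.54, 8.36 and 8.37, so that embryo b overlapped oocyte a (adjusted p = 0.15). Zp2, another zona protein, changed by -1.13 (adjusted p = 0.348). Npm2, the histone chaperone of the sperm nucleus, spread from 8.12 to 12.76 among the embryos and could not be placed (95% interval of the change from -1.92 to 2.12).

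Of 62 measured genes of mRNA decay and its control, 4 fell (6.45%) and 0 rose, with a list median of -0.28. Lsm14b, an RNA-binding protein of stored messages in the oocyte, fell by a small and uniform step: 15.15, 15 and 14.92 in the oocytes, and 14.28, 14.26, 14.26 and 14.17 in the embryos (change -0.78, SE 0.12, adjusted p = 0.0016). Cnot11, a subunit of the CCR4-NOT deadenylase, and Tob2, an adaptor that recruits it, fell by 1.76 and 1.56 (adjusted p = 0.0406 and 0.0318), calls lost in 9 and 8 of the alternative settings. Lsm5, of the ring that promotes decapping, changed by -4.38 (adjusted p = 0.0318), with oocyte d at 10.49 and embryo a at 9.67 close to each other. Btg4, the adaptor of maternal mRNA clearance, was at 14.25, 14.22 and 13.99 against 14.23, 13.89, 13.94 and 14.44, with a 95% interval from -0.45 to 0.39. Dcp1a, a decapping cofactor, had means of 15.50 and 12.09 but an SD of 3.13 among the embryos (adjusted p = 0.064).

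Of 53 measured genes of secretory membranes 3 fell (5.66%). Tm9sf3 and Tm9sf2, multispanning membrane proteins of the Golgi and endosomes, both fell. Tm9sf3 was at 13.31, 13.16 and 13.32 in the oocytes and at 8.08, 6.99, 7.09 and 8.03 in the embryos (change -5.71, adjusted p = 0.00106), though its second probe changed by only -0.90. Tm9sf2 was at 14.77, 14.75 and 14.85 against 12.51, 12.47, 12.87 and 12.44 (change -2.22, SE 0.22, adjusted p = 1.29e-05), and its second probe changed by -1.35. Tmed9, a cargo receptor of vesicles between endoplasmic reticulum and Golgi, fell from 11.81, 12.49 and 12.97 to 6.89, 7.48, 7.52 and 7.44, at or near background in every embryo. Tmed2, of the same family, had means of 14.72 ± 0.16 and 13.27 ± 0.94 (adjusted p = 0.0673), while Arf1, the coat-recruiting GTPase, was at 15.03 ± 0.04 and 15.17 ± 0.04. A second Arf1 probe went the other way, by -0.42. None of 70 Rab and Arf genes was called.

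Both called genes of the unfolded protein response, 2 of 37 (5.41%), encode stress sensors of the endoplasmic reticulum. Atf6b, a membrane-tethered transcription factor, was at 12.95, 13.34 and 13.52 in the oocytes and 7.67, 7.29, 8.01 and 7.99 in the embryos. With a change of -5.53 (SE 0.55, adjusted p = 1.29e-05) and an SD of only 0.34 among the embryos it shared the lowest adjusted p with Tm9sf2. Ern1, the sensor IRE1, was at 14.87, 14.77 and 14.59 against 12.47, 12.03, 10.91 and 11.95 (change -2.90, adjusted p = 0.000251). The folding chaperones Calr and Canx were at 14.16 ± 0.15 against 14.06 ± 0.36 and at 14.16 ± 0.19 against 13.34 ± 0.24, and neither passed. A dimmer Calr probe went the other way, with means of 8.73 and 10.05.

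Enzymes that build glycans and matrix polysaccharides had 5 of 40 genes lower (12.5%) and 0 higher, and a list median of -0.20. Ext1 and Ext2 form the polymerase of heparan sulfate. Ext1 was at 13.42, 13.66 and 13.53 in the oocytes and 11.12, 10.39, 10.47 and 10.74 in the embryos (change -2.85, adjusted p = 0.000303). Ext2 was at 10.99, 9.66 and 12.59 against 7.51, 7.42, 8.12 and 7.77 (change -3.38, adjusted p = 0.0016), with oocytes spread widely and embryos low in all 4. Has3, a hyaluronan synthase, fell from 11.21, 12.33 and 12.99 to 7.04, 7.06, 7.12 and 7.14, an SD of 0.05 just above background. Stt3a and Stt3b, the catalytic subunits of the 2 oligosaccharyltransferases that begin N-glycosylation, fell by 3.08 and 1.31 (adjusted p = 0.00588 and 0.013), although the 2 other probes of Stt3a changed by only -0.36 and -0.55. Ddost, a shared subunit of these enzymes, was at 13.10 ± 0.13 and 12.51 ± 0.82.

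Of 340 measured solute carriers, 10 were lower (2.94%) and 3 higher (0.882%). Among the fallen ones were carriers of metals, vitamins and choline. Slc31a2, a copper transporter, was at 15.07, 14.94 and 15.09 in the oocytes and 12.12, 12.80, 10.77 and 12.43 in the embryos (change -3.0, adjusted p = 0.000761). Slc23a2, the ascorbate transporter, fell from 13.51, 13.68 and 13.82 to 11.69, 11.52, 11.67 and 10.34, and Slc45a3 from 14.39, 14.14 and 14.14 to 12.45, 11.98, 12.30 and 11.60 (adjusted p = 0.0016 and 0.00037). In these 3 genes no embryo approached an oocyte. Slc12a7, a potassium-chloride cotransporter, changed by -3.98, the zinc exporters Slc30a1 and Slc30a4 by -3.98 and -3.68, and Slc39a9, a zinc importer, by -3.80. Slc39a9 was an exception to the separation of groups, since embryo c stood at 11 and the other embryos at 6.46, 6.4 and 6.56. The thiamine transporter Slc19a2 and the choline transporters Slc44a1 and Slc44a2 changed by -3.16, -4.82 and -3.06, with a second probe of Slc44a1 at -0.43. The risen carriers were Slco1a5, Slco1a1 and Slc27a2, described with the other rises; another probe of Slc27a2 went the other way, by -1.19.

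Adhesion genes moved in both directions: of 66 measured cadherins, claudins and connexins, 3 fell (4.55%) and 2 rose (3.03%). Cdh1, E-cadherin, on which compaction of the later embryo depends, was at 14.05, 13.93 and 14.12 in the oocytes and 11.79, 11.10, 8.39 and 11.44 in the embryos (change -3.35, adjusted p = 0.00389), lowest in embryo c. Cldn4, a claudin of tight junctions, was at 13.48, 12.70 and 14.20 against 9.47, 9.41, 11.11 and 12.07 (adjusted p = 0.0328), and Cdh19 fell by 2.16. Gjd3, a connexin, rose from 8.52, 8.99 and 8.73 to 13.30, 13.22, 11.99 and 14.49 (change 4.50, SE 0.87, adjusted p = 0.00872). Cdh13, a cadherin without a cytoplasmic tail, rose by 1.58 (adjusted p = 0.0168).

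**Figure D3:**
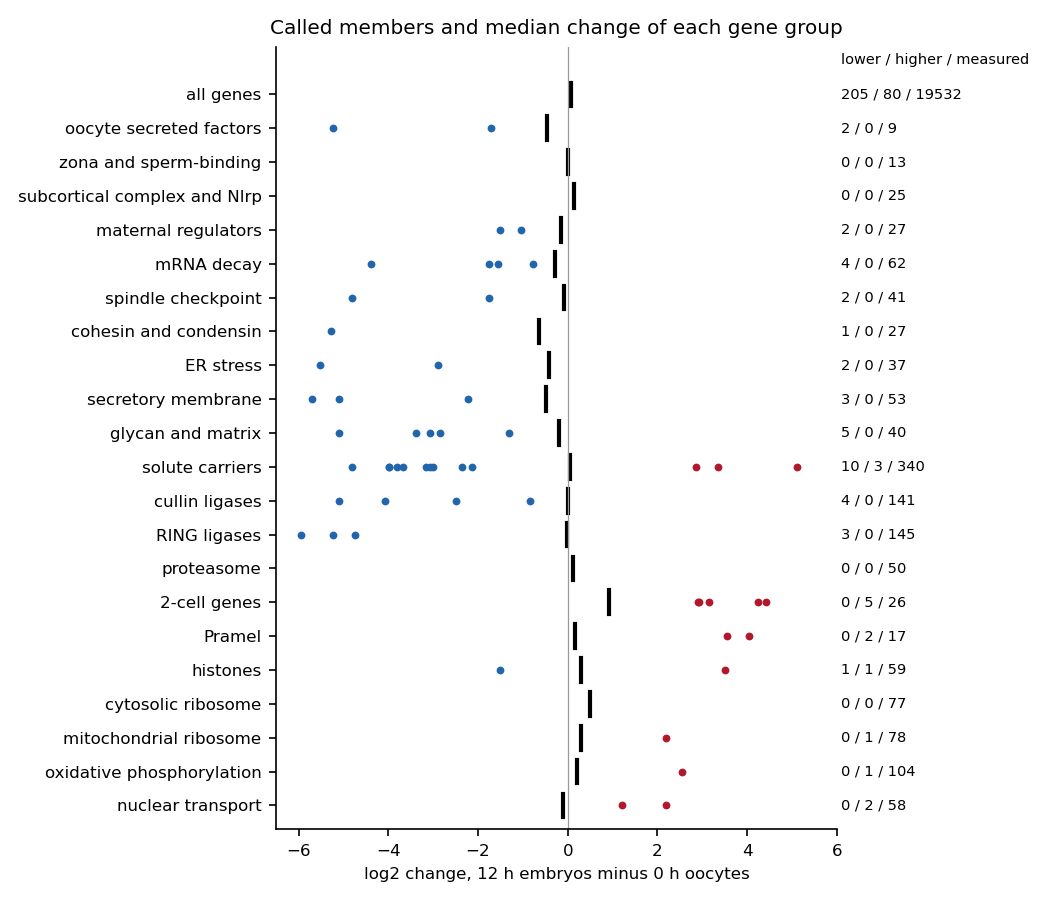
Log2 change at 12 h of every called member (blue lower, red higher) and the median change over all measured members (black bar) for 21 gene groups and for all genes; the figures at the right are the numbers lower, higher and measured. Called members of the secretory, glycan and ligase groups all lie on the left, those of the 2-cell and Pramel groups on the right, and the group medians stay within 1 log2 unit of 0.

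Ubiquitin ligase components fell in 4 of 141 cullin-type genes (2.84%) and 3 of 145 RING-type genes (2.07%), with 0 rises in either. Klhl18, a cullin-3 adaptor, was at 12.06, 12.30 and 12.51 against 7.52, 6.98, 7.32 and 6.94 (adjusted p = 0.00106), with a second probe at -3.70. Fbxo21 and Kctd5, substrate adaptors, changed by -2.5 and -0.85, and Dcun1d2, a neddylation factor, by -4.07, with 1 other Dcun1d2 probe at -1.87 and a dimmer one at 1.26. Rnf130 was at 12.05, 11.37 and 11.66 against 7.07, 6.73, 6.85 and 7.18 (change -4.74, adjusted p = 0.00037). Rnf215 fell by 5.24. Marchf7 had the largest change, -5.95, and of its 2 other probes above background 1 went down by -1.33 and 1 went up by 2.18, so its probes disagree. None of 50 proteasome genes was called (median 0.12); Psme3, a proteasome activator, was at 15.59 ± 0.14 and 15.20 ± 0.25.

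Other losses were scattered over metabolism, chromatin and signalling. Insig1 and Npc1, regulators of cholesterol synthesis and transport, were the 2 called genes of 25 in the sterol list (8%). Insig1 was at 14.90, 14.71 and 14.67 against 13.57, 12.95, 13.46 and 13.26 (change -1.45, adjusted p = 0.0041), and Npc1 fell by 3.34. Prmt1, the main arginine methyltransferase, was at 13.65, 13.94 and 13.82 against 9.54, 9.11, 10.44 and 9.32 (change -4.20, adjusted p = 0.00238). It was 1 of 112 chromatin modifiers to fall, and Setd7, a lysine methyltransferase, the 1 to rise, by 1.13. Tada2a, an adaptor of histone acetyltransferase complexes, fell by 4.97 (adjusted p = 0.000761). Mknk1, a kinase of the translation factor eIF4E, had means of 14.06 and 9.53 but embryos at 12.97, 7.39, 7.76 and 9.99. Eif2ak1 (the kinase HRI), Taldo1 (transaldolase), Sesn3 (a sestrin), Txnrd3 (a thioredoxin reductase), Hspb11, Brix1, Rbm17 and Rdx were the single fallen members of lists with shares of 1.15% to 3.7% lower, against 1.05% of all genes, with changes of -2.93, -3.84, -2.98, -2.96, -1.57, -0.96, -1.43 and -1.26. Among the 15 largest falls, Tspan9 (a tetraspanin), Tmco6, Tex2 and Samd8 (a sphingolipid enzyme) changed by -4.99, -5.08, -4.96 and -4.96. Other probes were lower by less, at -1.13 for Tspan9 and at -1.0 and -2.18 for Samd8. Vwa2, a matrix protein, was at 13.55, 13.02 and 13.52 in the oocytes and near background in 3 embryos, but at 12.40 in embryo c.

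The risen genes included a set known from the 2-cell stage. Of 51 genes listed as minor-wave or 2-cell genes 26 were measured, of which 5 rose (19.2%, against 0.410% of all genes) and 0 fell, with a list median of 0.92. The list was drawn up with results of these cells known, so its share is not independent evidence. Arg2, the mitochondrial arginase, was at 7.86, 8.77 and 7.31 in the oocytes and 11.95, 12.68, 12.78 and 12.24 in the embryos (change 4.43, SE 0.82, adjusted p = 0.00617). Gm7969 was at 7.69, 7.48 and 8.30 against 13.28, 12.73, 11.51 and 10.77 (change 4.25, adjusted p = 0.00522). These 2 genes kept their calls in all 14 alternative settings. Usp17lc was at 7.27, 7.49 and 7.62 against 11.67, 11.42, 9.64 and 9.72 (adjusted p = 0.00509), and Gm5662 at 7.37, 7.18 and 7.31 against 11.92, 10.02, 9.08 and 9.83 (adjusted p = 0.00597). Zfp352, with the TAATCC repeat shown above, was at 6.96, 7.43 and 7.29 against 10.64, 10.19, 11.98 and 7.71 (change 2.90, adjusted p = 0.0413). Embryo d stayed within 1 unit of background, and the call of Zfp352 was lost in 7 settings. Other members did not pass: Gm4340 and Tcstv1, which belong to 2-cell gene families, were at 11.77 ± 0.70 against 13.12 ± 1.33 and at 12.04 ± 0.14 against 13.22 ± 0.58. Ccnb1 and Zscan4d were not analysed here.

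In the Pramel family 2 of 17 measured genes rose (11.8%). Pramel39 was at 7.41, 7.17 and 7.63 in the oocytes and 13.87, 12.27, 11.27 and 8.40 in the embryos (change 4.05, SE 0.80, adjusted p = 0.0102). Pramel37 followed the same order, with 7.40, 7.47 and 7.68 against 13.63, 11.77, 10.59 and 8.25 (change 3.54, adjusted p = 0.0126). Embryo a was highest and embryo d lowest in both, a span of more than 5 units. The SD among the embryos was 2.30 for Pramel39 and 2.25 for Pramel37, against 0.23 and 0.14 among the oocytes. Each SE rests on a spread pooled over all times, so it and the adjusted p do not reflect the embryo spread alone. Both calls were lost in 3 settings: with only the groups compared, without oocyte a and without oocyte c. With a possible shared signal the pair may not be separate measurements. Pramel25, already bright in the egg, was at 15.28 ± 0.28 and 15.55 ± 0.11, and Pramel29 at 14.70 ± 0.09 and 15.06 ± 0.07.

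Rises outside these families included transporters, a noncoding RNA and a stress gene. Slco1a5, an organic anion transporter, was at 6.74, 7.19 and 6.91 in the oocytes and 11.37, 12.72, 13.41 and 10.73 in the embryos (change 5.11, SE 0.97, adjusted p = 0.00742), and a dimmer probe rose by 2.87. Slco1a1, of the same family, was at 6.58, 6.81 and 6.44 against 9.76, 10.89, 11.44 and 7.78 (adjusted p = 0.00685). In both the order of the embryos was c, b, a, d from high to low. Snhg5, a host of small nucleolar RNAs, was at 8.81, 8.18 and 7.57 against 12.19, 13.03, 13.02 and 10.33 (change 3.96, adjusted p = 0.0175). Gadd45g, a stress-inducible growth regulator and the 1 of 41 immediate early genes to pass, was at 7.0, 7.44 and 7.29 against 11.31, 9.12, 9.95 and 9.72 (adjusted p = 0.00432). Myc, by comparison, was at 8.32, 8.45 and 8.30 against 8.56, 8.89, 9.56 and 9.82 (adjusted p = 0.394). Fkbp7, an endoplasmic reticulum isomerase, Fabp9, a fatty acid-binding protein, and the histone gene H4c14 rose by 3.21, 3.14 and 3.50. Txndc9, a thioredoxin-domain protein, rose by 3.29, its other probes by 1.34 and 0.45. For 4930453N24Rik, at 2.96, a dimmer probe went the other way, by -0.87. Klk1b9, a kallikrein, was at background in the oocytes (6.76, 6.70 and 6.72) and in embryo d (6.74), and at 11.56, 9.92 and 8.87 in embryos a, b and c.

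**Figure D4:**
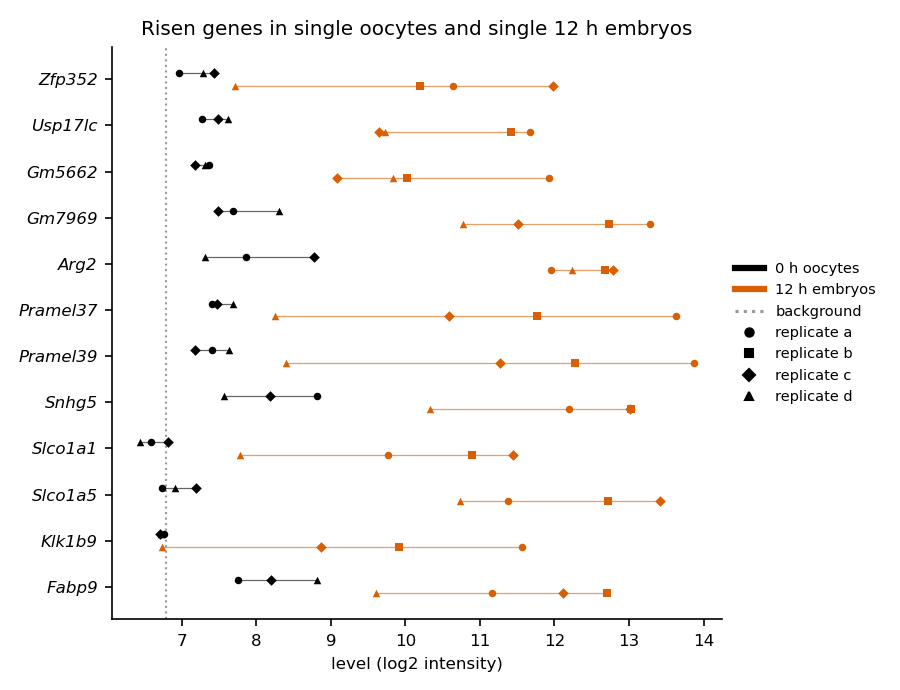
Level of 12 risen genes in each oocyte (black) and each 12 h embryo (orange), in log2 intensity; the dotted line is background. Embryo d (triangles) is the lowest of the 4 for Zfp352, Gm7969, Pramel37, Pramel39, Snhg5, Slco1a1, Slco1a5, Klk1b9 and Fabp9, but not for Usp17lc, Gm5662 or Arg2.

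The embryos differed from each other more than the oocytes did, in the genes that had moved and over all genes. The median SD of the risen genes was 0.67 among the embryos and 0.23 among the oocytes, and that of the fallen genes 0.65 and 0.31. Over all genes it was 0.50 and 0.28. Of the 80 risen genes, 26 lay within 1 unit of background in the oocytes, where differences may be understated. Over the 80 risen genes embryo d was the lowest in 27 and the highest in 10, whereas over all genes it was lowest in 23.7% and highest in 24.7%. Embryo c was the lowest in 12 and the highest in 27 of the risen genes, against 25% and 28.2% of all genes. Over the 205 fallen genes embryo b was the lowest in 70 and embryo d in 34, against 25.9% and 23.7% of all genes. Embryo d was the highest in 61 and embryo a in 59 of the fallen genes, against 24.7% and 24.9% of all genes.

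Other rises were of genes that already lay more than 3 log2 units above background in the egg, as did Txndc9. Arpc5l, of the Arp2/3 actin complex, was at 13.24, 13.23 and 13.40 in the oocytes and 14.16, 14.20, 14.62 and 14.17 in the embryos (change 1.0, SE 0.20, adjusted p = 0.00952). The nuclear import receptors Kpna2 and Kpna3 were the 2 risen genes of 58 in nuclear transport (3.45%). Kpna2 was at 11.48, 11.53 and 11.51 against 13.90, 13.69, 13.56 and 13.65 (adjusted p = 0.0125), with a second probe at 2.70, and Kpna3 rose by 1.21. Bag6, a chaperone, rose by 0.86, while 1 other probe above background rose by 1.49 and 2 went the other way, by -0.89 and -0.73. Prdx2, a peroxiredoxin, rose by 1.11 (adjusted p = 0.0395). Atp5pb, of the ATP synthase, and Mrpl38, of the mitochondrial ribosome, rose by 2.55 and 2.18 as the single risen genes of 104 and 78, calls lost in 8 and 7 of the 14 alternative settings. For the 77 genes of cytosolic ribosomal proteins the median change was 0.49 with 0 called, and array medians were 9.88 to 10.14 in the oocytes and 10.86 to 11.13 in the embryos.

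Many abundant messages of the egg were kept. Among 1347 genes with an oocyte mean of at least 13, the 95% interval of the change lay within 1 log2 unit of 0 in 536 (39.8%), while 79 fell, 7 rose and 725 met neither condition. Pou5f1 (Oct4), the pluripotency factor, was at 14.79, 14.99 and 14.97 in the oocytes and 14.93, 14.87, 14.65 and 15.03 in the embryos, with an interval from -0.34 to 0.25. The brightest such genes were Oosp1, an oocyte-secreted protein, Tcl1, a cofactor of the kinase AKT, Oas1e, Rfpl4, Mphosph6, a cofactor of the RNA exosome, Ubl5, D6Ertd527e and 2010204K13Rik. Oosp1 was at 15.80, 15.81 and 15.76 against 15.79, 15.78, 15.78 and 15.83, with an interval from -0.12 to 0.13. These 8 genes lie close to the highest value of the arrays, 15.86, where a rise could not be seen. Dppa3 (Stella), which protects the maternal genome from demethylation, was at 14.36, 13.83 and 13.95 against 14.83, 14.31, 14.63 and 14.55 (interval from 0.05 to 1.01, adjusted p = 0.302). In the RNA polymerase II and Mediator list of 112 genes, and in the pluripotency list of 26, 0 were called.

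The embryos at 2 h had also been injected, so setting the 12 h embryos against them asks what differed after the first hours. By that comparison 126 genes were lower (0.645%) and 100 higher (0.512%) at 12 h. The 12 h embryos enter both comparisons, and values are given side by side. No gene passed when only the 2 h and 12 h embryos entered the fit, where 2118 genes had an unadjusted p under 0.05 (limma), and the counts of higher genes were 25, 30 and 64 without 2 h embryos b, d and a. The median levels of the 205 fallen genes at 0, 2, 4, 6, 8, 10 and 12 h were 12.39, 11.31, 11.01, 10.47, 9.91, 9.65 and 8.49. These genes were called on their 0 h and 12 h values, so the choice itself sets those ends apart from the times between. The counts that follow share this limit. For 84 of them the 2 h mean was within 1 unit of the 0 h mean and not of the 12 h mean, for 44 it was within 1 unit of the 12 h mean only, for 20 of both and for 57 of neither.

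Some fallen genes were near their 12 h level by 2 h. Ext2 averaged 11.08 in the oocytes, 7.42 ± 0.18 (SD, n = 3) at 2 h and 7.70 ± 0.31 at 12 h, a change of 0.28 after 2 h (adjusted p = 0.876). Cldn4 went from 13.46 to 10.20 ± 0.19 and 10.51 ± 1.3, and Slc12a7 from 12.52 to 9.15 ± 1.03 and 8.55 ± 0.95. Sesn3 and Cdh19 changed by only -0.18 and -0.13 between 2 h and 12 h. Has3 averaged 12.17 in the oocytes, 8.22 ± 0.19 at 2 h, 10.29 at 4 h and 7.09 ± 0.05 at 12 h. Other messages were still near their oocyte level at 2 h and fell afterwards. Gdf9 averaged 15.39 ± 0.13 at 2 h and fell by 1.81 from there to 12 h (adjusted p = 0.000152). Mos averaged 14.79 ± 0.27 at 2 h, 13.21 at 6 h and 9.54 at 12 h, a change of -5.25 from 2 h (adjusted p = 0.00215). Plat changed by -4.43 from 2 h (adjusted p = 0.00752), Tm9sf3 by -5.19 (adjusted p = 0.00449), Smc3 by -4.37 (adjusted p = 0.00572) and Bub1b by -4.19 (adjusted p = 0.00449). Atf6b lay lower at 2 h, at 12.19 against 13.27 in the oocytes, and changed by -4.45 from there (adjusted p = 0.000545). Lsm14b, H1f8 and Zar1 were at 15.19, 14.52 and 14.96 at 2 h, at or above their oocyte means, and fell from there by 0.94, 1.88 and 1.07.

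**Figure D5:**
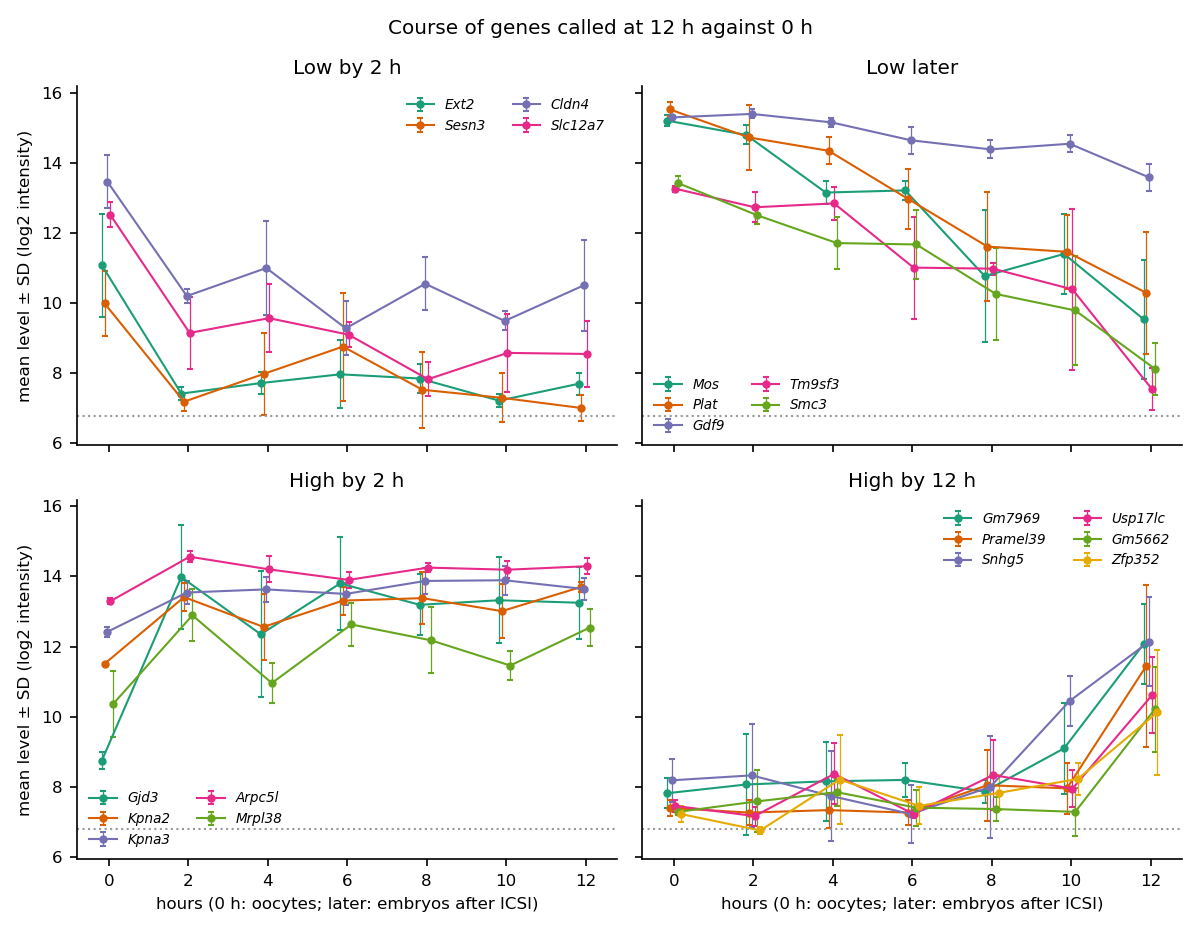
Mean level ± SD (log2 intensity) at 0, 2, 4, 6, 8, 10 and 12 h for 20 genes called at 12 h against 0 h, with 3 or 4 cells per time; the dotted line is background. Ext2, Cldn4 and Slc12a7 sit at 7.42, 10.20 and 9.15 by 2 h while Mos and Plat are at 14.79 and 14.72, and Gjd3 is at 13.98 by 2 h while Gm7969, Pramel39 and Zfp352 stay at 8.07, 7.27 and 6.76.

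The rises also fell into early and late. The 2 h mean was within 1 unit of the 0 h mean only in 52 of the 80 risen genes, of the 12 h mean only in 13, of both in 8 and of neither in 7. The risen genes too were called on their 0 h and 12 h values, which limits such counts. Gjd3 averaged 13.98 ± 1.47 at 2 h and 13.25 ± 1.02 at 12 h (change after 2 h -0.73, adjusted p = 0.777), and Kpna2, Kpna3, Bag6 and Arpc5l changed by 0.29, 0.10, 0.12 and -0.27. Mrpl38 averaged 12.89 at 2 h, 10.96 at 4 h and 12.54 at 12 h. Arg2 was between, at 10.36 ± 1.19 at 2 h, 9.10 ± 2.10 at 4 h and 11.73 at 6 h. The 2-cell and Pramel genes other than Arg2 were late. Pramel39 averaged 7.27, 7.34, 7.27, 8.05 and 7.96 at 2, 4, 6, 8 and 10 h, before 11.45 ± 2.30 at 12 h, a rise of 4.18 from 2 h (adjusted p = 0.0139). Gm7969, Usp17lc, Zfp352 and Gm5662 rose from 2 h by 4.00, 3.44, 3.36 and 2.63 (adjusted p = 0.0144, 0.005, 0.0253 and 0.0218). Snhg5 rose by 3.81 from 2 h (adjusted p = 0.0296) and averaged 10.45 at 10 h. Gadd45g rose by 2.21 from 2 h (adjusted p = 0.0296) and averaged 9.23 and 9.21 at 8 h and 10 h.

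A few genes differed between 2 h and 12 h without a called difference from the oocytes, and they were chosen after their values were seen. Gna14, a G protein subunit, averaged 12.06 in the oocytes, 7.81 ± 0.48 at 2 h and 11.65 ± 0.44 at 12 h, a rise of 3.84 (SE 0.66, adjusted p = 0.00713) with a change of -0.41 against the oocytes. Jak1, a cytokine receptor kinase, averaged 11.27, 7.69 ± 0.88 and 11.53 ± 1.33 (adjusted p = 0.0449). In the other direction Tkt, transketolase, averaged 9.75, 12.25 ± 0.60 and 7.42 ± 0.18, lower at 12 h than at 2 h by -4.83 (adjusted p = 0.0144). Birc5 (survivin), of the chromosomal passenger complex, averaged 14.39 ± 0.33 in the oocytes and 15.15 ± 0.63 at 12 h and was higher than at 2 h by 2.60 (adjusted p = 0.0423), and Bmp15 was higher than at 2 h by 1.21 (adjusted p = 0.0269).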

How the data were processed

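The deposited values, 1 per probe for 41174 probes and 24 arrays, are scores from 0 to 4.57 with near-identical distributions (medians 1.16 to 1.18); per the submitters' processing notes they were made with limma, with no version, background step or scanner stated there. Oligo-dT beads captured the mRNA of single cells, which was reverse transcribed, tailed and amplified by PCR with 1 primer, per the labels' protocols; the protocol speaks of a digoxigenin sample and a biotin reference while the label reads biotin, so the channel behind the deposited scores is not known here. The scale was read from 83 midpoints that tied probes leave after quantile normalization: the deposited scores followed ln(ln(intensity)) over 0.2247 (largest curvature residual 0.0233 against fitted values of 1.117 to 2.68), which gave log2 intensities of 5.68 to 15.86, though a shift or a factor of the intensity itself would leave the midpoints as they are; a shift would alter the changes of dim genes most. The deposited scores themselves are an alternative.

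The platform annotation gave 1 symbol to 32664 probes, several to 45 and none to 8465; 32524 were matched by Entrez identifier to RefSeq (GRCm38.p6), with 0 symbols changed. The brightest probe stood for each of 19532 genes. All 24 arrays entered 1 limma fit (lmFit, eBayes with trend; limma 3.58.1, R 4.3.3) of 7 group means, with 2 two-sided contrasts, 12 h against 0 h and against 2 h, each adjusted by Benjamini-Hochberg over all genes and called at an adjusted p under 0.05. The spread of a gene was pooled over the 7 groups, so its SE can understate the spread of the 12 h embryos. The fit was tested on simulated data. Genes named are the 15 largest falls and rises without overlap, all called list members, up to 3 further bright members of a list, 17 classical genes, the 8 brightest kept genes and the 6 called genes most variable among the embryos; exceptions are said. The 46 gene lists, the comparison and the named genes were chosen with earlier results of these data known. A gene was kept where the 95% interval lay within 1 log2 unit of 0. Groups and replicate letters came from the titles. Deviations from the group mean in same-letter cells had r of 0.018, -0.021 and 0.041 between 0 h and 12 h. Between 2 h and 12 h they had r of 0.048, -0.017 and 0.039. Cells of different letters ran from -0.068 to 0.033. Correlations this small cannot show whether cells of 1 letter shared a female, a day or a batch, so the main fit did not pair cells. Alternatives were a fit of only the groups compared, no trend, array weights, the mean of all probes, the upper 60% of genes, the deposited scores, a replicate block and leaving out each cell.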

Additional observations from a re-analysis of the deposited data

Results flagged for a closer look

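In 14 of the 108 genes tested, 1 of the 4 embryos at 12 h stood far from the other 3, measured as the gap to its neighbour over the group's range; chance alone gives about 1 in 20 such groups, a rate that does not hold here because some of the genes were chosen for their spread among these embryos. Embryo c stood high for Vwa2 at 12.40 (median of the others 7.40), Slc39a9 at 11 (6.46), Cdc26 at 13.91 (12.29) and Arpc5l at 14.62 (14.17), and low for D6Ertd527e at 15.17 (15.67). Embryo b stood high for Slc30a4 at 9.29 (7.10) and Tmco6 at 9.32 (7.49) and low for Ubl5 at 15.50 (15.78). Embryo a stood high for Lsm5 at 9.67 (7.11) and low for Cdk1 at 11.14 (12.78) and Tmed9 at 6.89 (7.48). Embryo d stood low for Slc23a2 at 10.34 (11.67), Lsm14b at 14.17 (14.26) and Mphosph6 at 15.80 (15.82), the last pair by small distances. For the fallen genes Vwa2 and Slc39a9, embryo c lay near the oocytes, while the other 3 lay within 1 unit of background.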

How the results depend on the processing

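Of the 90 called genes named, 30 kept their call in all 14 alternatives, among them Mos, Plat, Gdf9, Atf6b, Smc3, Bub1b, Tm9sf2, Tm9sf3, Ext1, Has3, Ern1, Slco1a5, Arg2 and Gm7969; 60 lost it at least once, 47 of them when an oocyte was left out, and 0 reversed. Calls lost in 7 or more were those of Taldo1, Cnot11, Cdh19, Tob2, Slc39a9, H4c14, Hspb11, Prdx2, Brix1, Zar1, Atp5pb, Setd7, Klk1b9, Kpna3, Mrpl38, Kctd5, Eif2ak1, Cldn4, Zfp352, 4930453N24Rik and Txnrd3. Of genes without a call, Cdk1 gained one in 6, Dcp1a and Tmed2 in 5 and Kif23 in 3. The 80 higher genes became 23 with only the groups compared, 174 without the trend and 444 with array weights, and ranged from 15 to 94 when 1 cell was left out. The 205 lower genes became 532 with array weights and ranged from 89 to 190. Against 2 h, the 100 higher genes became 0 with only the groups compared, 159 without the trend and 26 with array weights, with a range of 25 to 139, and the 126 lower genes became 0 and 52 (only the groups compared, array weights), with a range of 66 to 123. The 536 kept genes became 285 with the mean of all probes and ranged from 433 to 514. The cause of these shifts was not tested; with only the groups compared fewer cells estimate the spread. A replicate block, although the letters are not known to pair cells, gave 76 higher and 192 lower genes against 0 h, 70 and 86 against 2 h, and 543 kept. Genes near background or near the highest value may have changes that are understated. Single cells amplified by PCR carry amplification error that cannot be told apart from differences between cells, and 3 oocytes set the spread of their group.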

Other observations

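Some gene families were picked after the values were seen. Of 211 genes named Tmem, for transmembrane proteins, 6 fell (2.84%) and 0 rose: Tmem131l, Tmem150a, Tmem209, Tmem237, Tmem30b and Tmem59. Of 22 Zdhhc genes, which encode the enzymes that attach palmitate to proteins, Zdhhc7, Zdhhc8 and Zdhhc21 fell (13.6%), with a family median of -0.16, with other probes of Zdhhc8 at -2.30 and, near background, at 0.48. Of 24 zinc transporter genes 3 fell (12.5%) and 0 rose, with a median of 0.04. Among 342 zinc finger genes named Zfp, 1 fell and 5 rose (1.46%): Zfp352, Zfp640, Zfp933, Zfp938 and Zfp959. Of 1031 olfactory and vomeronasal receptor genes 4 rose (0.388%, against 0.410% of all genes) and 1 fell.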
